A study of Homo sapiens with 15 samples.

Results

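Transcripts of 10 matrix genes known from fibroblasts and other cells were followed through cardiac differentiation of H1, an established line of human embryonic stem cells. The genes, FN1, POSTN, TNC, LOX, SPARC, ELN, FBN1, FBN2, THBS1 and TGFBI, were taken by symbol from the deposited table of 60605 genes, in which each matched 1 row. All 10 passed the filter on low values, an FPKM of 1 or more in any of the 15 libraries, which 21206 genes passed in all. FPKM is the count of a gene scaled by its exonic length and by the total of the library, and is the scale of every level given here.

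Wild-type H1 cells on Matrigel received the WNT activator CHIR99021 on Day 0 and medium with insulin on Day 1, and this was shared by every group. Libraries of Days 0, 1 and 2 came before the arms divided. From Day 2, NP-ctrl cells (not passaged) stayed in place and differentiated spontaneously. NP-IWP2 cells likewise stayed in place but received IWP2, an inhibitor of WNT secretion, from Day 2. In the study's protocol IWP2 was no longer in the medium from Day 5 on. Passaged cells were dissociated with EDTA and replated on Day 2. Each arm had 1 library on each of Days 3, 5, 7 and 10. Replating in the study's protocol also lowered the cell density. Per the paper, the ROCK inhibitor Y27632 was added in every differentiation experiment that followed its survival tests, and insulin at replating was optional. The sample labels name neither. The passaged arm can thus differ from static culture by all of these together, and they cannot be told apart. There were no replicates of any arm and day: intervals for single libraries are 95% Clopper-Pearson intervals and cover counting error only, and the tests given later measure the spread of an arm difference between days of 1 series of cultures.

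The matrix around cells is both a scaffold and a set of signals. Fibronectin (FN1) is assembled into fibrils by integrins and is the adhesive layer on which many other matrix proteins are laid down. Fibrillins (FBN1, FBN2) form microfibrils, elastin (ELN) is deposited on them, and lysyl oxidase (LOX) crosslinks elastin and collagen. Matricellular proteins (POSTN, TNC, SPARC, THBS1 and the related TGFBI) add little mechanical strength and instead change how cells attach and respond to growth factors. In the heart these genes are known mainly from fibroblasts, valve and epicardium-derived cells and from wound repair, whereas cardiomyocytes contribute little interstitial matrix.

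Total counts ranged from 13254723 to 20250115 per library, and FN1 had up to 272235 of them, whereas ELN never exceeded 928. The passaged library of Day 3 stood apart by its mitochondrial share of counts, 1.53% against 4.80% in NP-ctrl, and that of Day 10 at 10.3% against 3.72%. The part of these shares in the results was not tested. In bulk RNA, fewer cells of a type and less RNA per cell cannot be told apart. The level of H1 itself was low for most members: on Day 0, SPARC stood at 74.2, FBN2 at 16.9 and FN1 at 14.7, and the other 7 members lay between 0.06 and 2.08.

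**Figure D1:**
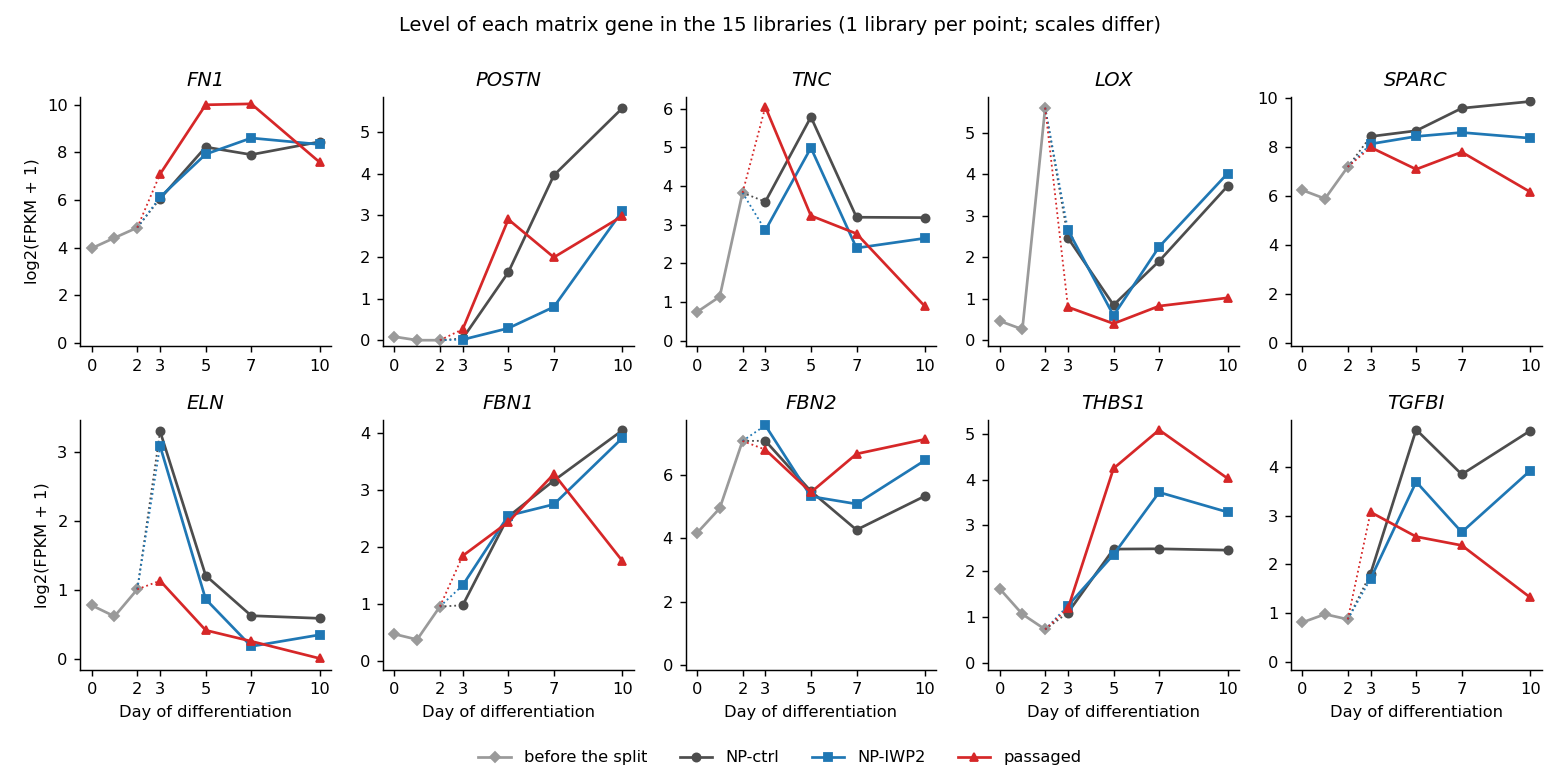
Level of each of the 10 genes, as log2(FPKM + 1), against day of differentiation; each point is 1 library, grey diamonds are the libraries before the arms divided and dotted lines join Day 2 to each arm. The plots show TNC highest in passaged cells on Day 3, LOX highest on Day 2, and SPARC and LOX lowest in the passaged arm on each of Days 3 to 10.

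Before the arms divided, 3 of 10 members were higher on Day 2 than on Day 0 by at least 1 in log2(FPKM + 1), the size called a change for single libraries, and 0 were lower. Among all 21206 genes 6.57% were higher and 5.17% lower by that size. The 3 were LOX, TNC and FBN2. LOX (ENSG00000113083, chromosome 5, 122063195 to 122078413 on hg38, minus strand) stood at 0.38, 0.20 and 47.6 on Days 0, 1 and 2, with 5395 counts in the last library. That was 234-fold higher on Day 2 than on Day 1 (interval 153 to 378). TNC stood at 0.67, 1.20 and 13.2 on the same days, and was 10.9-fold higher on Day 2 than on Day 1 (9.50 to 12.6). FBN2 stood at 16.9, 29.7 and 133, with a 4.47-fold step at the end (4.36 to 4.58). THBS1 went the other way over these days, from 2.08 through 1.09 to 0.66. POSTN had 6 counts on Day 0 and 0 counts on Days 1 and 2. On Day 2, the day of replating, LOX was thus at its highest level of all 15 libraries.

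On Day 3, a day after replating, 3 of 10 members were higher in passaged than in NP-ctrl cells by at least 1 and 2 were lower, beside 5.02% and 3.48% of all genes. The raised members were TNC, TGFBI and FN1, and the lower members were ELN and LOX. FN1 lay just past the limit at 1.03, and FBN1 fell just short of it at 0.87. As a ratio of FPKM, FBN1 differed more than FN1, at 2.66-fold (2.32 to 3.07) against 2.07-fold, since the added 1 weighs on low levels. With 0.1 added instead, 5 members were higher by at least 1, beside 13.5% of all genes. The median difference of the members was 0.16, beside 0.03 over all genes, with 6 members above 0 and 4 below.

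TNC (ENSG00000041982, chromosome 9, 115019575 to 115118257, minus strand), which encodes tenascin-C, a protein known to loosen cell attachment to fibronectin, gave the largest step up. It stood at 65.0 in passaged cells on Day 3, where NP-ctrl stood at 11.1, NP-IWP2 at 6.22 and the culture of Day 2 at 13.2. The passaged library was thus above every other library of the series, 5.88-fold over NP-ctrl (interval 5.58 to 6.19) and 10.4-fold over NP-IWP2 (9.72 to 11.2). Without passaging, TNC reached its own peak later, on Day 5, at 54.1 in NP-ctrl and 30.7 in NP-IWP2. Passaged cells on Day 5 were by then at 8.38, 6.45-fold below NP-ctrl (6.07 to 6.85). Day 7 values were 8.13 for NP-ctrl, 4.26 for NP-IWP2 and 5.80 after passaging. By Day 10 they were 8.07, 5.27 and 0.85, and passaged cells had 76.3-fold less TNC than on Day 3 (63.9 to 91.7). Against NP-ctrl the direction on Day 3 was therefore opposite to that on Days 5, 7 and 10. Against NP-IWP2 it was opposite on Days 5 and 10, while on Day 7 passaged cells were again higher (1.36-fold, 1.23 to 1.51).

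TGFBI (ENSG00000120708, chromosome 5, 136028988 to 136063818, plus strand) encodes an adhesive protein that binds integrins and collagen and was named for its induction by TGF-beta. On Day 2 it was at 0.84. On Day 3 it was at 2.52 for NP-ctrl, 2.27 for NP-IWP2 and 7.39 after passaging, 2.93-fold over NP-ctrl (2.57 to 3.35). Static cells then passed the replated ones: NP-ctrl stood at 26.0 on Day 5, 13.3 on Day 7 and 25.5 on Day 10, and NP-IWP2 at 11.9, 5.32 and 14.1. Passaged cells went down from their Day 3 value to 4.93, 4.24 and 1.51. On Day 10 the passaged level was 16.9-fold under NP-ctrl (14.5 to 19.8) and 9.34-fold under NP-IWP2. In log2(FPKM + 1), TNC and TGFBI were the 2 members that were raised by at least 1 on Day 3 and lower by at least 1 on Day 10, a combination held by 1.04% of all genes. By their counting intervals, FN1, FBN1 and POSTN (15 counts against 3 on Day 3) were also higher on Day 3 and lower on Day 10. Each was short of the limit on 1 of these days.

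FN1 (ENSG00000115414, chromosome 2, 215360440 to 215436073, minus strand) was also higher on Day 3 but had another course. It stood at 27.7 on Day 2, and on Day 3 at 65.6 for NP-ctrl, 68.7 for NP-IWP2 and 135 after passaging. The Day 3 level was 2.07-fold over NP-ctrl (2.03 to 2.10), and the difference from NP-IWP2, 0.97 in log2(FPKM + 1), was just short of the limit. Unlike TNC and TGFBI, the gap then widened. Passaged cells reached 1027 on Day 5 and 1055 on Day 7, while NP-ctrl stood at 298 and 239 and NP-IWP2 at 242 and 388. FN1 alone took 1.77% of all counts of the passaged library on Day 5 and 1.82% on Day 7, and at most 0.669% in a static library. On Day 10 the order was turned, with 348 for NP-ctrl, 322 for NP-IWP2 and 191 after passaging, 1.82-fold lower than NP-ctrl (1.80 to 1.84). At -0.86 this last difference was short of the limit, so FN1 was raised on Days 3, 5 and 7 and was not counted as lost. Both calls turned with the scaling, since the Day 3 difference was 0.95 with TMM-scaled values and the Day 10 difference was -1.15 as TPM.

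For the 3 raised genes, the bases before the transcription start are shown, since these members were higher together on Day 3 and shared or separate short motifs can be read there. They were taken from RefSeq on GRCh38.p14, 5′ to 3′ on the gene's own strand, with any base that lies in a GENCODE exon left off. The deposited table can use another annotation, and the last bases of the TNC stretch lie inside the gene's span in that table. Capitals mark matches, on either strand, to the TATA box letters TATAAA, the AP-1 letters TGANTCA, the CRE letters TGACGTCA, the TEAD letters GGAATG and the GC box GGGCGG. No pair of these motifs overlaps in the stretches shown, but copies of the GC box overlap each other in FN1. The TNC stretch (chr9:115118208-115118407, minus strand) had 1 GC box, that of TGFBI (chr5:136028738-136028987, plus strand) had 3, and that of FN1 (chr2:215436074-215436252, minus strand) had 1 CRE and 6 GC boxes.
TNC: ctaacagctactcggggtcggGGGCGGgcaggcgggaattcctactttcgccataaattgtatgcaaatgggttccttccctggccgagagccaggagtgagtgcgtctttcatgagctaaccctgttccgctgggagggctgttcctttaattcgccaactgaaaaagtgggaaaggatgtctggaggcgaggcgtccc
TGFBI: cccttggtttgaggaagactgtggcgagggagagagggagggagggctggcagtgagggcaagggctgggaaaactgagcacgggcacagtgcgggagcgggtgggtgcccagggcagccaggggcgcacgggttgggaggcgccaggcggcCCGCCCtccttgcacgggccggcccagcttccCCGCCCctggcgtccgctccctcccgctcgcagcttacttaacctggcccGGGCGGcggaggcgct
FN1: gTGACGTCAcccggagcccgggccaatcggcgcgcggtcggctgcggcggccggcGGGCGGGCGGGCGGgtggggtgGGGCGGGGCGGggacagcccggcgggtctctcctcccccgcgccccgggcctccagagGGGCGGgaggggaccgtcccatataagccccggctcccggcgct
Of 35116 promoters in the same table, read over 250 bases before the start, 42.6% held the GC box, 1.65% the CRE, 11.9% the TEAD letters, 10.7% the TATA box and 6.57% the AP-1 letters. The motif shared by the 3 raised genes is thus a frequent one, and the CRE letters were found in FN1 but not in the TNC or TGFBI stretch. Such a match is a run of letters and was not measured as a bound site here.

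ELN and LOX were the members lower on Day 3. ELN (ENSG00000049540, chromosome 7, 74027789 to 74069907, plus strand) encodes elastin. Static cells had a single high point of ELN on Day 3, at 8.85 in NP-ctrl (928 counts) and 7.50 in NP-IWP2 (653 counts), up from 1.02 on Day 2. Passaged cells stayed at 1.20 (106 counts), within counting error of Day 2, and 7.37-fold under NP-ctrl (6.02 to 9.10). Later levels were low in every arm: NP-ctrl had 134, 47 and 44 counts on Days 5, 7 and 10, NP-IWP2 had 76, 15 and 29, and passaged cells had 34, 19 and 1. The Day 3 high of static culture was absent from the replated cells at the days sampled.

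LOX went down from its Day 2 level in all arms by Day 3, but not equally. It stood at 4.52 for NP-ctrl, 5.30 for NP-IWP2 and 0.74 after passaging, 10.5-fold, 8.99-fold and 63.9-fold under Day 2. Passaged cells were 6.07-fold lower than NP-ctrl (4.59 to 8.15). On Day 5 LOX was low everywhere, at 0.80, 0.51 and 0.32 in the same order. Static cells then regained it, with 2.75 on Day 7 and 12.1 on Day 10 in NP-ctrl and 3.76 and 15.2 in NP-IWP2. Passaged cells stayed at 0.77 and 1.03, and on Day 10 were 11.7-fold under NP-ctrl (9.41 to 14.7) and 14.7-fold under NP-IWP2 (11.8 to 18.4). The counting interval of the ratio excluded 1 on each day against NP-ctrl, and on each day but Day 5 against NP-IWP2. SRFBP1, a gene of the opposite strand that overlaps LOX, had 140 to 388 counts per library, and whether counting used strand was not stated.

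**Figure D2:**
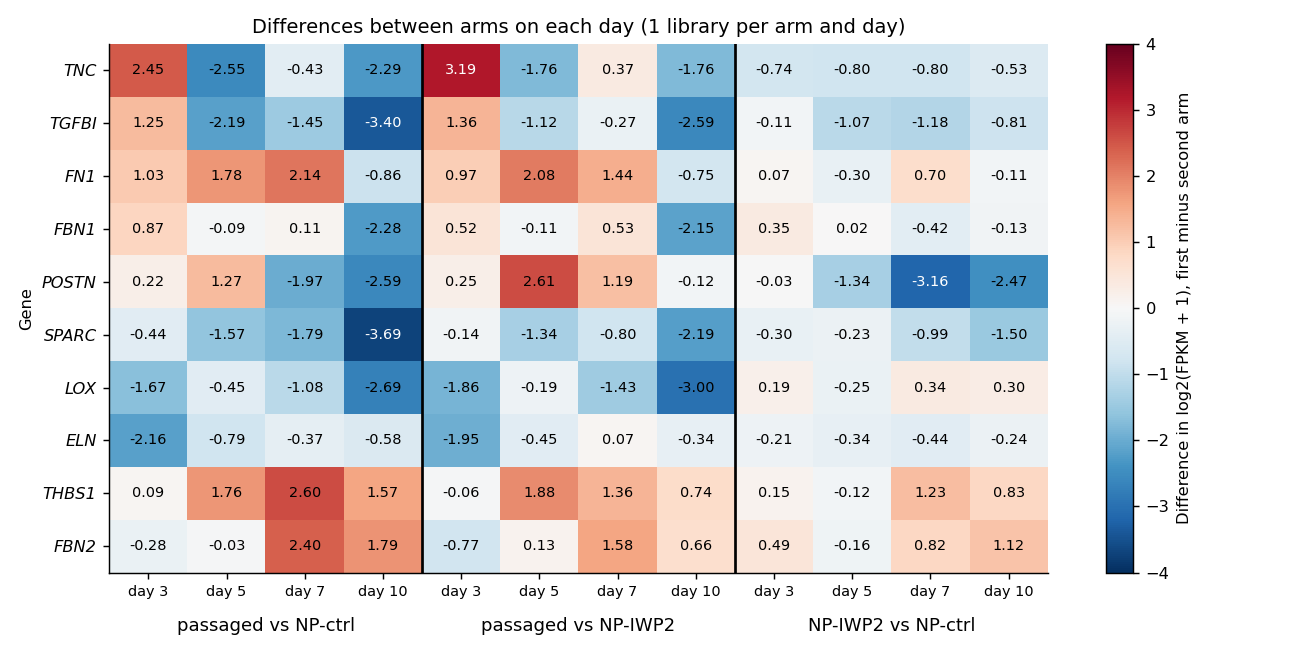
Differences in log2(FPKM + 1) between the arms on each of Days 3, 5, 7 and 10, the first arm named minus the second; each cell is the difference of 2 libraries and the colour runs from blue (lower) to red (higher). TNC and TGFBI pass from red on Day 3 to blue on Day 10 in both comparisons with passaged cells, LOX is blue throughout those comparisons, and THBS1 and FBN2 are red on Days 7 and 10.

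By Day 10 most members were lower after passaging. Against NP-ctrl, 6 of 10 were lower by at least 1 and 2 were higher, beside 11.7% and 5.67% of all genes, and the median difference of the members was -2.29, beside -0.09 over all genes. The 6 lost members were SPARC, TGFBI, LOX, POSTN, TNC and FBN1. Against NP-IWP2, the static arm given the WNT inhibitor in its first days only, 5 of 10 were lower and 0 higher, beside 7.01% and 3.07% of all genes. These 5 were LOX, TGFBI, SPARC, FBN1 and TNC, and POSTN was not among them.

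SPARC (ENSG00000113140, chromosome 5, 151661096 to 151686975, minus strand), a collagen-binding matricellular protein, had the highest FPKM of the members in NP-ctrl on each of Days 3 to 10. By counts, which are not scaled by length, FN1 exceeded it there on Day 10 (80560 against 57582) and on Days 5 and 7. From 144 on Day 2 it stood at 342, 402, 762 and 922 on Days 3, 5, 7 and 10 in NP-ctrl. NP-IWP2 was flatter, at 277, 343, 383 and 326. Passaged cells had 251, 134, 220 and 70.5, below both static arms on each day, and below the undivided culture of Day 2 on Days 5 and 10. On Day 10 they were 13.1-fold under NP-ctrl (12.7 to 13.5) and 4.62-fold under NP-IWP2 (4.49 to 4.77).

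POSTN (ENSG00000133110, chromosome 13, 37562583 to 37598844, minus strand) encodes periostin, a marker of activated fibroblasts and of the cushions that become valves. It was nearly absent on Day 3, with 15 counts after passaging, 3 for NP-ctrl and 1 for NP-IWP2. On Day 5 passaged cells led, at 6.46, where NP-ctrl stood at 2.09 and NP-IWP2 at 0.22. That was 3.09-fold over NP-ctrl (2.60 to 3.68) and 29.4-fold over NP-IWP2 (18.2 to 50.8). NP-ctrl then went to 14.5 and 46.4 on Days 7 and 10, and NP-IWP2 to 0.74 and 7.57, while passaged cells stood at 2.97 and 6.88. On Day 10 passaged cells were 6.74-fold under NP-ctrl (6.17 to 7.38), and their ratio to NP-IWP2 was within counting error (1.10-fold lower, 0.982 to 1.23). POSTN was thus the member for which the NP-IWP2 arm lay as far under NP-ctrl on Day 10 as the passaged arm did, at -2.47 and -2.59 in log2(FPKM + 1).

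FBN1 (ENSG00000166147, chromosome 15, 48408313 to 48645721, minus strand), the fibrillin of mature microfibrils, differed by at least 1 in log2(FPKM + 1) on Day 10 alone. On Day 3 it stood at 0.97 for NP-ctrl, 1.51 for NP-IWP2 and 2.59 after passaging, 2.66-fold over NP-ctrl (2.32 to 3.07). The Day 5 levels were 4.77, 4.84 and 4.41. On Day 7 the order was 7.94, 5.70 and 8.68. On Day 10 static cells reached 15.4 and 14.0, and passaged cells were back at 2.38, 6.47-fold under NP-ctrl (5.96 to 7.03) and 5.86-fold under NP-IWP2 (5.39 to 6.36). Passaged cells were 1.08-fold under NP-ctrl on Day 5 and 1.09-fold over it on Day 7.

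Beside the Day 10 losses, summed markers of fibroblast, epicardial, yolk sac and liver, and endothelial type were lower after passaging, and those listed for smooth muscle and cardiomyocytes were not. The summed FPKM of 11 fibroblast markers other than the members was 4538 for NP-ctrl, 1292 for NP-IWP2 and 118 after passaging, with 10, 10 and 6 of the 11 at an FPKM of at least 1. Of these markers, TCF21 and FAP were at 0 counts in passaged cells on Days 7 and 10. FAP was also at 0 in NP-ctrl on each day and in NP-IWP2 on Days 3, 5 and 10. It was above 0 in passaged cells on Days 3 and 5, and so did not separate the arms. TCF21 is listed among the epicardial markers too, so the fibroblast and epicardial sums share it. Epicardial markers summed to 69.2, 76.5 and 0.36, and yolk sac and liver markers to 4179, 1228 and 19.4. Endothelial markers summed to 34.5, 28.6 and 5.82. Cardiomyocyte markers ran the other way, at 505, 1561 and 3686. The 4 genes listed for smooth muscle (ACTA2, TAGLN, CNN1 and MYH11) summed to 99.3, 89.5 and 127 on Day 10. They summed to 133, 204 and 499 on Day 7, when FN1 and THBS1 were highest in passaged cells. On both days 3 of the 4 were at an FPKM of at least 1 in each arm. Which cells carried these transcripts was not tested. On Day 3, when TNC, TGFBI and FN1 were raised, the fibroblast markers summed to 198, 164 and 282 and the cardiomyocyte markers to 13.8, 8.74 and 16.8. The part of cell make-up in the matrix values was not tested.

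**Figure D3:**
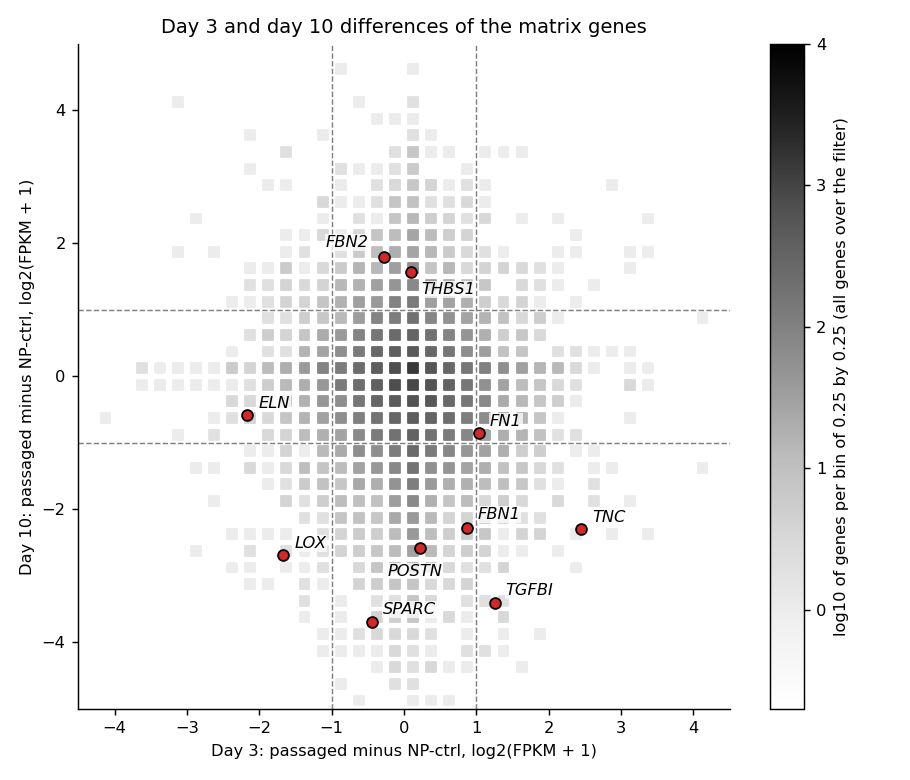
Difference between passaged and NP-ctrl cells on Day 3 (horizontal axis) and Day 10 (vertical axis), both in log2(FPKM + 1), for the 10 members (red, named) over all 21206 genes (grey squares, darker for more genes per bin; genes beyond the axes are not drawn). Dashed lines stand at 1 and -1; TNC and TGFBI lie at the lower right, LOX at the lower left, SPARC, POSTN and FBN1 at the bottom centre, and FBN2 and THBS1 at the top.

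THBS1 and FBN2 formed the remaining group, short of the limit on Day 3 and higher than NP-ctrl by at least 1 on Days 7 and 10. THBS1 (ENSG00000137801, chromosome 15, 39581079 to 39599466, plus strand) encodes thrombospondin-1, which activates latent TGF-beta and inhibits the growth of vessels. Its Day 3 levels of 1.14 for NP-ctrl, 1.38 for NP-IWP2 and 1.28 after passaging lay within counting error of each other. From then on NP-ctrl was flat, at 4.60, 4.62 and 4.51 on Days 5, 7 and 10. NP-IWP2 stood at 4.15, 12.2 and 8.80, and passaged cells at 18.0, 33.0 and 15.3. Passaged cells were thus the highest arm on Days 5, 7 and 10, at most 7.13-fold over NP-ctrl on Day 7 (6.53 to 7.80), and were 3.40-fold over it on Day 10 (3.09 to 3.74). THBS1 was the second member, with FN1, whose highest level of all 15 libraries was in passaged cells on Day 7.

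FBN2 (ENSG00000138829, chromosome 5, 128257909 to 128659185, minus strand), the fibrillin best known from the embryo, was high on Day 3 in every arm, at 133 for NP-ctrl, 187 for NP-IWP2 and 110 after passaging. The small Day 3 deficit against NP-ctrl, -0.28 in log2(FPKM + 1), was 0.00 when levels were scaled as TPM. Against NP-IWP2 passaged cells were 1.71-fold lower on that day (1.68 to 1.74). On Day 5 all arms were lower, at 43.6, 38.8 and 42.6. NP-ctrl stood at 18.2 and 39.2 on Days 7 and 10, NP-IWP2 at 32.8 and 86.5, and passaged cells at 99.8 and 138. The passaged arm thus came back to its Day 2 level of 133, and exceeded NP-ctrl by 5.49-fold on Day 7 (5.29 to 5.71) and 3.52-fold on Day 10 (3.43 to 3.61). On Day 10 it was 1.59-fold over NP-IWP2 (1.56 to 1.62), short of the limit.

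The upstream bases of these genes are given in the same way, to set them beside those of the Day 3 genes. THBS1 (chr15:39580829-39581078, plus strand) had 1 match to the TEAD letters and 4 GC boxes, and FBN2 (chr5:128538246-128538495, minus strand) had 3 GC boxes. The RefSeq start used for FBN2 lies inside the gene's span in the deposited table.
THBS1: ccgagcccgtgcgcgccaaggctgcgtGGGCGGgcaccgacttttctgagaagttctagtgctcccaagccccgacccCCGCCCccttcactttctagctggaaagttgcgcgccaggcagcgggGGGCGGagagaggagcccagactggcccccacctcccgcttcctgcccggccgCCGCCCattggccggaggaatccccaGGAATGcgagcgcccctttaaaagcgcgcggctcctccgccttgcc
FBN2: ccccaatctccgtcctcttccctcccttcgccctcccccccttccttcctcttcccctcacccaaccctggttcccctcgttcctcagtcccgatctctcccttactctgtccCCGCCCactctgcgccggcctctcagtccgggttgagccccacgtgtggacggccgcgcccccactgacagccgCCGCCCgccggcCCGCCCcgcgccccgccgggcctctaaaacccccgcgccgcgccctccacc
The TEAD letters were in the THBS1 stretch and in none of the TNC, TGFBI, FN1 and FBN2 stretches, and 11.9% of all promoters held them. They were thus not particular to the later group, since the FBN1 stretch, not printed here, also held 1 match. The POSTN stretch, also not printed, held 1 TATA box and 1 match to the AP-1 letters.

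Because FBN1 and FBN2 build the same microfibrils, their FPKM ratio was followed. FBN2 exceeded FBN1 in every library. The ratio was 43.5 on Day 0 (36.3 to 52.5) and 142 on Day 2 (127 to 158). On Day 3 it was 137 for NP-ctrl, 124 for NP-IWP2 and 42.3 after passaging. All arms came together on Day 5, at 9.14, 8.02 and 9.66. On Day 7 they stood at 2.29, 5.76 and 11.5. On Day 10 the ratio was 2.54 in NP-ctrl (2.44 to 2.64), 6.20 in NP-IWP2 (5.99 to 6.42) and 57.8 in passaged cells (53.5 to 62.5). On Day 10 passaged cells thus had a larger excess of FBN2 than on Day 0, with both less FBN1 and more FBN2 than either static arm. Ratios between genes carry the doubt that the library kit named by the labels is one for long reads while the counting tools are for short reads, but this scaling by length is the same in all libraries.

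**Figure D4:**
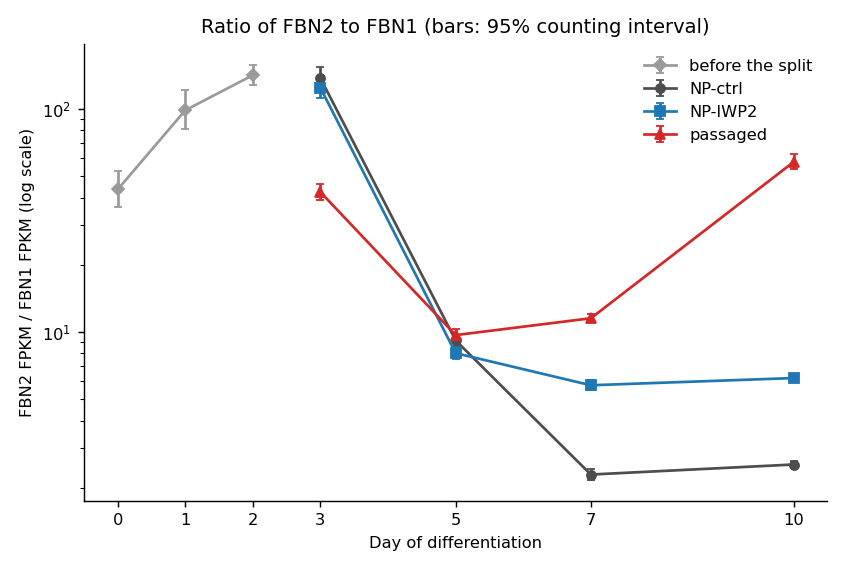
Ratio of FBN2 FPKM to FBN1 FPKM in each library against day of differentiation, on a log axis; bars are 95% counting intervals, grey is the culture before the arms divided. The arms meet on Day 5 and stand apart on Day 10, at 2.54 for NP-ctrl, 6.20 for NP-IWP2 and 57.8 after passaging.

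To ask which arm differences held over the days, counts of the 12 libraries of Days 3 to 10 were fitted for all 21206 genes with day as a block (quasi-likelihood test of edgeR, Benjamini-Hochberg adjustment). Between passaged and NP-ctrl cells, 4 of 10 members passed at an adjusted p under 0.05, beside 4.4% of all genes. LOX fell by 2.27 on the log2 scale (SE 0.39, edgeR adjusted p = 0.0094), ELN fell by 2.43 (SE 0.51, edgeR adjusted p = 0.0234) and SPARC fell by 1.79 (SE 0.39, edgeR adjusted p = 0.0293). Each was lower on 4 of 4 days. THBS1 rose by 1.79 (SE 0.38, edgeR adjusted p = 0.0258), and was higher on 4 of 4 days, with that of Day 3 within counting error. With limma, and with NP-IWP2 left out of the fit, 0 members passed (LOX had adjusted p of 0.102 and 0.0715). LOX passed without Day 3, Day 5 or Day 10 but not without Day 7 (edgeR adjusted p = 0.0693). ELN did not pass without Day 3, 5 or 10 (edgeR adjusted p of 0.0567 to 0.103), and SPARC and THBS1 did not pass without Day 5, 7 or 10 (0.0806 to 0.201).

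The other 6 members did not pass in this fit. TNC had a log2 change of -0.46 (SE 0.92), POSTN of -0.43 (SE 0.81) and FBN1 of -0.07 (SE 0.48), with edgeR adjusted p of 0.85, 0.836 and 0.967, and the sign of each was turned by leaving out Day 10. FN1 was at 1.19 (SE 0.43, edgeR adjusted p = 0.146), and passed without Day 10 (1.66, edgeR adjusted p = 0.0408), the day on which its difference was of the other sign. TGFBI was at -1.36 (SE 0.72, edgeR adjusted p = 0.346), and passed without Day 3 (-2.45, edgeR adjusted p = 0.0076). FBN2 was at 1.10 (SE 0.46, edgeR adjusted p = 0.213).

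A shift of the arm difference between Days 3 and 5 and Days 7 and 10 was then tested as an interaction. For passaged against NP-ctrl, 2 of 10 members passed, beside 3.31% of all genes. POSTN went from 1.73 (SE 0.50) in the early days to -2.34 (SE 0.40) in the late days, a shift of -4.06 (SE 0.64, edgeR adjusted p = 0.0139). FBN2 went from -0.21 (SE 0.28) to 2.32 (SE 0.29), a shift of 2.52 (SE 0.40, edgeR adjusted p = 0.0139). Both calls were lost without Day 3 or Day 10 (edgeR adjusted p of 0.0548 to 0.178), with limma (0.111 and 0.0625), and when Day 3 alone was set against the later days. That of POSTN was also lost without Day 5 (edgeR adjusted p = 0.0851), and that of FBN2 without Day 7 (0.111), with only the compared arms (0.105) and as a linear trend (0.0792). The 3 members raised on Day 3 did not pass: the shift was -2.17 (SE 1.67) for TNC and -2.22 (SE 1.22) for TGFBI, with edgeR adjusted p of 0.537 and 0.366. For TNC the early window joins Day 3, when it was raised, to Day 5, when it was lower. Their higher Day 3 levels rest on 1 library of each arm, with the counting intervals given above. SPARC, at -1.52 (SE 0.61, edgeR adjusted p = 0.213), and FBN1, at -1.43 (SE 0.88, edgeR adjusted p = 0.423), did not pass either, but SPARC, TGFBI and FBN1 passed as a linear trend over days, at edgeR adjusted p of 0.0182, 0.0284 and 0.0341.

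**Figure D5:**
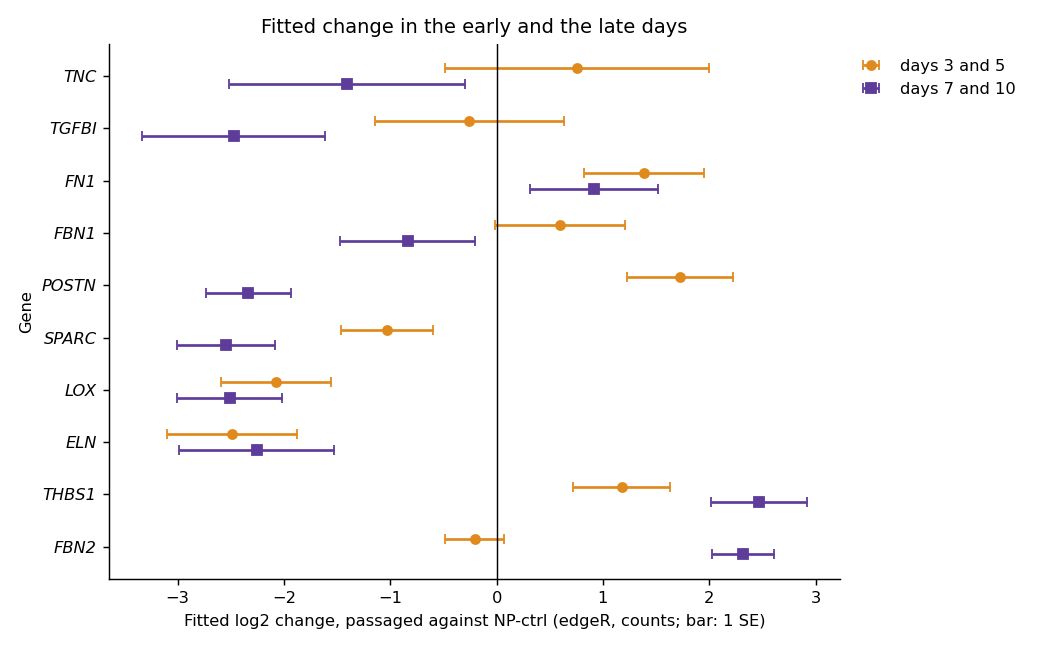
Fitted log2 change of each gene between passaged and NP-ctrl cells in the early days (3 and 5, orange circles) and the late days (7 and 10, purple squares), from the counts by edgeR; bars are 1 SE. POSTN passes from above 0 to below 0 and FBN2 from near 0 to 2.32, while LOX and ELN lie below 0 in both windows.

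In the same fit against NP-IWP2, 1 of 10 members passed, beside 1.33% of all genes. This was LOX, which fell by 2.41 (SE 0.39, edgeR adjusted p = 0.0166) and was lower on 4 of 4 days, with Day 5 within counting error. The call was lost without Day 7 (edgeR adjusted p = 0.116) or Day 10 (0.0581), with only the compared arms (0.0563) and with limma (0.200). ELN was at -1.62 (edgeR adjusted p = 0.188), SPARC at -0.95 (0.315), FN1 at 1.15 (0.266) and THBS1 at 1.22 (0.171). POSTN had the largest value, 2.69 (SE 0.86, edgeR adjusted p = 0.198), with higher levels on Days 3, 5 and 7. DESeq2 called 4 members in this comparison, LOX, ELN, POSTN and THBS1. The early to late shift against NP-IWP2 passed for 0 of 10 members by edgeR, beside 0.212% of all genes, with 2 at an unadjusted p under 0.05 (POSTN and FBN2), 2 called by DESeq2 and 0 by limma.

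Within static culture, NP-IWP2 was set against NP-ctrl. On Day 10, 1 of 10 was higher than in NP-ctrl by at least 1 and 2 were lower, beside 3.71% and 5.64% of all genes. FBN2 was the higher one (2.21-fold, 2.15 to 2.27), and POSTN (6.13-fold, 5.63 to 6.67) and SPARC (2.83-fold, 2.78 to 2.87) were the lower ones. LOX and FBN1, both lower by at least 1 in passaged cells, were 1.25-fold higher and 1.105-fold lower in NP-IWP2. The fit over days called 0 of 10 members by edgeR, beside 0.0189% of all genes, with 2 at an unadjusted p under 0.05 (POSTN at -3.12 and SPARC at -0.84) and 0 called by DESeq2 or limma. With the passaged arm left out of the edgeR fit, 3 members were called, all lower in NP-IWP2, beside 277 of 21206 genes. The shift over time likewise called 0 of 10 by edgeR, beside 0.00472% of all genes, with 1 at an unadjusted p under 0.05 and 0 by DESeq2 or limma. With the passaged arm left out, the shift called 1 member, beside 842 of 21206 genes. The call of 0 members thus depended on the passaged arm being in the fit. The comparisons that use NP-ctrl rest on the same 4 libraries of it, so their values are given side by side and are not independent.

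Other genes of the same structures gave context. Of 16 partners of elastic fibres, 8 were lower and 2 higher by at least 1 in passaged than in NP-ctrl cells on Day 10, beside 11.7% and 5.67% of all genes, with a median of -0.94 beside -0.09. On Day 3, 1 was lower and 1 higher, beside 3.48% and 5.02%. By edgeR over the days, 2 rose and 2 fell, beside 4.4% of all genes that passed in either direction. MFAP4, a microfibril-associated protein, fell by 2.75 (SE 0.26, edgeR adjusted p = 0.000516), with Day 3 levels of 70.0 in NP-ctrl and 15.3 in passaged cells. EMILIN2, of the elastin interface, rose by 2.22 (SE 0.33, edgeR adjusted p = 0.0049), to 94.5 against 12.9 on Day 10. FBLN1, a fibulin, stood at 9.14 against 112 on Day 10 (edgeR adjusted p = 0.0529), and EMILIN1 at 3.33 against 28.1 (0.598). On Day 10 NP-IWP2 lay between these arms, at 26.3 for EMILIN2, 41.8 for FBLN1 and 12.05 for EMILIN1.

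Of the 4 other lysyl oxidases, 1 was higher in passaged than in NP-ctrl cells on Day 3 and 0 were lower by at least 1, beside 5.02% and 3.48% of all genes. LOXL1, which acts on elastin, was the higher one at 22.1 against 9.79, LOXL2 stood at 35.0 against 17.1 and LOXL3 at 5.40 against 6.77. On Day 10, 2 of 4 were lower, beside 11.7% of all genes, LOXL1 at 10.2 against 25.0 and LOXL3 at 2.23 against 6.08. NP-IWP2 stood at 7.64 for LOXL1, below passaged cells, and at 5.50 for LOXL3. Against NP-IWP2, 1 of 4 was lower and 0 higher on Day 10, beside 7.01% and 3.07% of all genes. The median difference there was 0.45, beside -0.06 over all genes.

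Of 16 other matricellular genes, 11 passed the filter on low values, and 5 of these were lower and 1 higher on Day 10, beside the same 11.7% and 5.67% of all genes. SMOC2, of the SPARC family, stood at 61.7 for NP-ctrl, 20.8 for NP-IWP2 and 0.24 after passaging (edgeR adjusted p = 0.202). Its relative SMOC1 went the other way, at 3.71, 1.46 and 14.3, and rose over the days (edgeR adjusted p = 0.0342). CCN4, a WNT-induced member of the CCN family, had 470 counts in NP-ctrl and 0 in passaged cells on Day 10 and fell (edgeR adjusted p = 0.0258). In all, 2 of the 11 rose and 1 fell by edgeR, beside 4.4% of all genes in either direction.

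Among 12 receptors for these proteins that passed the filter, 6 were lower and 1 higher on Day 10, beside 11.7% and 5.67% of all genes. By edgeR 1 rose and 2 fell over the days, beside 4.4% of all genes, and 2 passed the early to late shift, beside 3.31%, both toward lower values after passaging (ITGA8 and ITGB8). ITGAV, the integrin alpha chain shared by receptors for fibronectin, periostin and TGFBI, was the higher one, at 104 against 38.9, and rose by 1.35 (SE 0.26, edgeR adjusted p = 0.0173). ITGA8, another partner of fibronectin and tenascin-C, stood at 0.76 against 32.9 (edgeR adjusted p = 0.244 for the arm effect), and CD47, a thrombospondin receptor, at 5.59 against 17.5 (0.0604). On Day 10 NP-IWP2 stood at 63.7 for ITGAV, 11.5 for ITGA8 and 18.7 for CD47. Of 9 genes of TGF-beta signalling, 1 was lower by at least 1 on Day 10 and 0 were higher, beside 11.7% and 5.67% of all genes. It was TGFBR3, at 0.91 against 38.9 (edgeR adjusted p = 0.166 for the arm effect), with NP-IWP2 at 14.9. TGFBR3 and TGFBR1 passed the early to late shift of edgeR toward lower values after passaging, beside 3.31% of all genes. On Day 3 the 1 lower gene was TGFB1, at 13.1 after passaging where NP-ctrl stood at 65.6 and NP-IWP2 at 68.3, on the day when TGFBI was raised.

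The members did not form 1 pattern over the 15 libraries. Across these libraries, which share arms and days and are not independent, Pearson's r of log2(FPKM + 1) between members ran from -0.614 (ELN with THBS1) to 0.839 (FN1 with FBN1), and FN1 with THBS1 was at 0.833. The gene most like each member was sought among the 11493 genes other than the members that reached an FPKM of 5. It was PRSS23 for THBS1 (r = 0.979), MAGEA11 for ELN (0.976), UBE2J1 for FN1 (0.969), KCTD20 for FBN1 (0.958), ANGPTL2 for SPARC (0.941), IGF2 for TGFBI (0.936), RLIM for LOX (0.933), RPL23AP53 for POSTN (0.931), DOCK1 for TNC (0.894) and PRCP for FBN2 (0.89).

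Levels per length gave a different order of the members at the end of each course. In NP-ctrl on Day 10 the order was SPARC, FN1, POSTN, FBN2, TGFBI, FBN1, LOX, TNC, THBS1 and ELN, from 922 down to 0.51. In NP-IWP2 it began with SPARC at 326, FN1 at 322 and FBN2 at 86.5. In passaged cells it was FN1, FBN2, SPARC, THBS1, POSTN, FBN1, TGFBI, LOX, TNC and ELN, from 191 down to 0.01. With 1 library each, whether neighbours in these orders differ was not tested. The 10 genes together took 1.17% of the NP-ctrl counts, 0.884% of the NP-IWP2 counts and 0.569% of the passaged counts on Day 10, but 0.836%, 0.922% and 2.11% on Day 7, when FN1 was at its highest in the passaged arm. Without FN1 the Day 7 shares were 0.425%, 0.254% and 0.291%, so that NP-ctrl had the largest share of the other 9 genes.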

How the data were processed

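Bulk RNA of 15 libraries was read from 1 table, in which all per-sample columns were mapped to samples by title (0 were left unmapped). Per the labels, the authors trimmed reads with cutadapt 1.9.1, aligned them to hg38 with HISAT2 2.0.1 and made whole-number counts per gene with HTSeq 0.6.1; the labels name a long-read (SMRTbell) kit, whereas these are short-read tools, and strand use and annotation release are not given in the sources used here. The deposited FPKM values are those counts scaled by exonic length and library total (recomputed to within 0.005). Counts were fitted as deposited with edgeR 4.0.16 (R 4.3.3), TMM factors and day as a block. Benjamini-Hochberg adjustment was over the 21206 genes that reached an FPKM of 1 in any library. The code was also run on simulated counts with planted changes. These had no day effects, so that run cannot tell how the fit behaves on the present data. limma 3.58.1 on log2(FPKM + 1) and DESeq2 1.42.0 were alternatives. Days are the only repetition, so p-values measure spread between days. The SE given with an edgeR change was not fitted but derived, as its absolute size divided by the square root of the test's F statistic. Single libraries were compared on log2(FPKM + 1), which understates changes of low genes, and called at a difference of 1, with no p-value. Named genes were the 10 members, the 4 genes per list with the largest Day 10 difference, and the gene most like each member among the 3 computed. Members and lists were chosen with earlier results of these data known. Opposite-strand genes overlap TNC, LOX, SPARC, ELN, FBN1, FBN2 and THBS1. Apart from SRFBP1 in LOX and SLC27A6 in FBN2 (22 to 270 counts), none of these partners exceeded 25 counts.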

Additional observations from a re-analysis of the deposited data

Results flagged for a closer look

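In the reported edgeR fit, the difference between passaged and NP-ctrl cells shifted from the early to the late days for 2 members. For POSTN the log2 change went from 1.73 on Days 3 and 5 to -2.34 on Days 7 and 10, a shift of -4.06 (SE 0.64, edgeR adjusted p = 0.0139). On Days 3 and 5 it was higher after passaging on 2 of 2 days, though on Day 3 with 15 counts against 3, and lower on 2 of 2 later days. For FBN2 the change went from -0.21 to 2.32, a shift of 2.52 (SE 0.40, edgeR adjusted p = 0.0139). Levels after passaging were above NP-ctrl on 2 of 2 late days. Both calls were lost without Day 3 or Day 10, with limma, and with Day 3 alone set against the later days. The FBN2 call was also lost with only the compared arms and as a linear trend. The fibroblast markers, which summed to an FPKM of 1894 in NP-ctrl and 390 after passaging on Day 5, stood at 4475 and 467 on Day 7. Their part in either shift was not tested.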

How the results depend on the processing

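Members passing the arm effect of passaged against NP-ctrl, 4 in the reported fit, were 7 with no filter on low values, 0 with only the compared arms, 0 with limma and 1 to 4 with a day left out. Against NP-IWP2 (1 reported) they were 6 with no filter, 0 with only the compared arms, 0 with limma, 4 with DESeq2 and 0 to 2 with a day left out, and for NP-IWP2 against NP-ctrl (0 reported) 1 with no filter and 3 with only the compared arms. For the shift of passaged against NP-ctrl (2 reported) they were 7 with no filter, 1 with only the compared arms, 0 with Day 3 against later days, 4 with a linear trend, 0 with limma and 0 to 2 with a day left out. The shift against NP-IWP2 (0 reported) gave 4 with no filter, 1 with a linear trend and 2 with DESeq2, and that of NP-IWP2 against NP-ctrl (0 reported) gave 1 with only the compared arms. Fits with arms or days left out had fewer libraries. Those with only the compared arms also took their spread from these arms alone, whereas in the reported fit all 3 arms share it. The cause of the differences was not tested. Over all genes, the arm effect of passaged against NP-ctrl called 933 in the reported fit, 2571 with no filter, 2150 with DESeq2, 163 with limma and 109 with only the compared arms. For NP-IWP2 against NP-ctrl the calls rose with only the compared arms, from 4 to 277 for the arm effect and from 1 to 842 for the shift. With a day left out, the arm effect of TNC ran from -1.87 to 0.30, of POSTN from -1.62 to 0.51 (0.0395 with DESeq2) and of FBN1 from -0.58 to 0.48, and the shift of TNC from -3.86 to 1.32, so none of these has a settled sign. At a 1.5-fold threshold, 8 members differed on Day 10 between passaged and NP-IWP2 cells (5 reported) and 5 between the static arms (3 reported). For Day 2 against Day 0 (3 reported), 5 differed with a pseudocount of 0.1, 5 as TPM and 6 at 1.5-fold. With TMM-scaled values FN1 stood at 0.95 on Day 3, under the limit, and as TPM at -1.15 on Day 10, past it. As TPM the median of all genes was 0.28 on Day 3 and -0.38 on Day 10 (0.03 and -0.09 as FPKM), and the share of higher genes among those changed was 75.0% and 21.1% (59.1% and 32.6% as FPKM). Against NP-IWP2 on Day 10 that share was 30.4%, and 41.1% with TMM-scaled values. The other 53 counts of members under an alternative stayed within 1.5 times the reported count. For single libraries these counts join higher and lower members. By direction, the 3 members higher on Day 3 between passaged and NP-ctrl cells were 5 with a pseudocount of 0.1, 4 as TPM, 4 at 1.5-fold and 2 with TMM-scaled values. ELN and LOX in passaged cells and POSTN on Day 3 rest on few counts and are limited by depth.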
